A study of Mus musculus with 5 samples.

Results

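The heat shock proteins and chaperones were taken by symbol: the numbered Hspa, Hspb, Hspd, Hspe and Hsph genes, the Hsp90 genes, the Dnaja, Dnajb and Dnajc genes, Bag1 to Bag6, the CCT subunit genes Cct2 to Cct8, and Cryab. The rule found 85 of 22980 genes. They comprised 13 HSP70 and HSP110 genes, 3 HSP90 genes, 44 HSP40 or J-domain genes, the 2 genes of the mitochondrial chaperonin, 9 CCT genes, 8 genes named as small heat shock proteins and 6 BAG genes. The data were unique molecular identifier (UMI) counts from mouse kidney, with 1 library per group and 17542 barcodes in all. Drop-seq was run on whole healthy cells released by enzymes at 37 °C from the kidney of a C57BL/6 mouse and sorted on light scatter. Nuclei freed by lysis and homogenization on ice were profiled from healthy kidney on 3 platforms, sNucDrop-seq, DroNc-seq and 10x Chromium. The fifth library, also 10x nuclei, came from kidney at day 14 of UUO (unilateral ureteral obstruction), in which a tied ureter leads to fibrosis. Age, sex, the number of animals and the strain behind the nucleus libraries were not given in the sources used here. With 1 library per group there was no replicate check and no test. Intervals below are exact 95% intervals and cover counting error only.

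Chaperones hold newly made or unfolded proteins until they fold, and many are induced by heat or other stress through heat shock factors. HSP40 proteins deliver clients to HSP70 and drive its ATP cycle, BAG proteins release them from it, HSP90 finishes selected clients such as kinases and steroid receptors, CCT folds actin and tubulin, HSP60 with HSP10 folds proteins imported into mitochondria, and small heat shock proteins hold clients without ATP. The endoplasmic reticulum has its own set, led by BiP (Hspa5) and GRP94 (Hsp90b1), which the unfolded protein response induces. The proximal tubule, the reabsorbing segment that makes up most of the kidney cortex, is rich in mitochondria.

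RefSeq promoter windows of assembly GRCm38.p6, from 250 bases before to 50 bases after each annotated start, were matched to 68 of the 85 members (88 windows). The sequences shown are those that carry 1 of 2 stress elements, printed 5′ to 3′ with the element in capitals. The ER stress element, searched on both strands as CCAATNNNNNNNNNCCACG, was present in 0.119% of 32851 windows and in those of 3 members, all with products in the endoplasmic reticulum: Hspa5 (BiP, the ER HSP70), Hsp90b1 (GRP94, the ER HSP90, with 2 matches) and Dnajc3 (an ER HSP40 that acts with BiP). Dnajc3 is shown from chr14:118937682-118937931 on the plus strand, Hsp90b1 from chr10:86705510-86705694 on the minus strand, which ends at the first annotated exon, and Hspa5 as the 30 bases around the element at chr2:34772020-34772049 on the plus strand.
Dnajc3: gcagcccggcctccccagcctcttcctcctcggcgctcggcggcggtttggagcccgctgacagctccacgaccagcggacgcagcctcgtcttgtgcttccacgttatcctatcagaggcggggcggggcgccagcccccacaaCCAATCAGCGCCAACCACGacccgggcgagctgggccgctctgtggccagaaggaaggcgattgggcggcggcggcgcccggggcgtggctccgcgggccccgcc
Hsp90b1: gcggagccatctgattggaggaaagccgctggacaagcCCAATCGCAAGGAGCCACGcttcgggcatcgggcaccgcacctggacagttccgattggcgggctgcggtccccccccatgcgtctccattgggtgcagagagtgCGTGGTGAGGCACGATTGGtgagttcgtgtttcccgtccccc
Hspa5: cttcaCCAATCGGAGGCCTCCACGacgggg

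The heat shock element, searched on both strands as GAANNTTCNNGAA, was present in 0.603% of all windows and in those of 4 members: Hspd1 (HSP60), Hspe1 (HSP10), Dnajb6 (an HSP40 that holds aggregation-prone proteins) and Hsph1 (an HSP110 that exchanges the nucleotide of HSP70). Hspd1 and Hspe1 lie head to head and their windows hold the same element, a pair of overlapping matches at chr1:55088053-55088082, read on the minus strand for Hspd1 and on the plus strand for Hspe1. The Hspd1 and Hspe1 gene models overlap, so reads from the overlap could have been assigned to either. The elements of Dnajb6 (chr5:29735844-29735873, plus strand) and Hsph1 (chr5:149636279-149636308, minus strand) are shown with 30 bases each. The Hsph1 element falls in the windows of 2 annotated starts and lies after both. These are matches of letters, not sites shown to be bound.
Hspd1: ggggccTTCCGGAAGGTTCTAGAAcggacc
Hspe1: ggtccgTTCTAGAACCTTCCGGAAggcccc
Dnajb6: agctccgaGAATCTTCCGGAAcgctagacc
Hsph1: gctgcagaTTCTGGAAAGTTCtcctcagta

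The 5 libraries held 2084 to 6147 barcodes and 2947137 to 7411036 UMIs, with a median of 1055 to 1630 UMIs per barcode. Mitochondrially encoded RNA made up 24.3% of the UMIs of the cells and 0.0271% to 0.244% of those of the nuclei. Levels are counts per 1000000 UMIs (CPM) of a library or class. Xist was at 1309 CPM in DroNc-seq and 1321 in healthy 10x, and at 0.405 or less in the other libraries. The healthy and UUO 10x nuclei thus differed in more than the obstruction, and the 2 cannot be told apart. Drop-seq cells and sNucDrop-seq nuclei differed from DroNc-seq and healthy 10x nuclei in Xist as well. In comparisons across these libraries that difference cannot be told apart from preparation or platform. The fewest barcodes in which any listed gene was counted was 6 in DroNc-seq and 4 in healthy 10x, against 1 in the others, so a gene without counts there is given as listed at 0. Healthy 10x and UUO shared 23 barcodes, Drop-seq and sNucDrop-seq shared 1, and the other pairs shared none. Classes were the authors' annotation. The 4 proximal tubule markers Slc34a1, Lrp2, Slc5a12 and Cubn summed highest in the proximal tubule of each library. Their sum there was 3771 CPM for cells, 8931, 10365 and 12949.6 for the healthy nuclei (sNucDrop-seq, DroNc-seq, 10x), and 924 for UUO. They were also counted in all other classes, where the sum reached 561 to 2720.2 CPM for cells, 2716 to 5176, 2288 to 5147 and 786 to 3034 for the healthy nuclei, and 42.6 to 189.7 for UUO. Their part in the levels of the other classes was not tested.

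Counts of the members had a larger share of the RNA of whole cells than of nuclei. Over all barcodes the members made up 0.893% of the UMIs of cells, against 0.469% (sNucDrop-seq), 0.380% (DroNc-seq) and 0.320% (10x) of those of healthy nuclei and 0.289% of those of UUO nuclei. Lists of 5 values below keep this order of libraries. Within the proximal tubule the summed level was 9039 CPM for cells (8962 to 9116), then 4866 (4786 to 4947), 3886 (3819 to 3954), 3259 (3157 to 3363) and 2754 (2701 to 2809). The order was that of the whole libraries, and no intervals overlapped. The number of members with a count was 79, 81, 73, 66 and 82. Cct8l1 and Hspb9 had no count in any library.

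**Figure D1:**
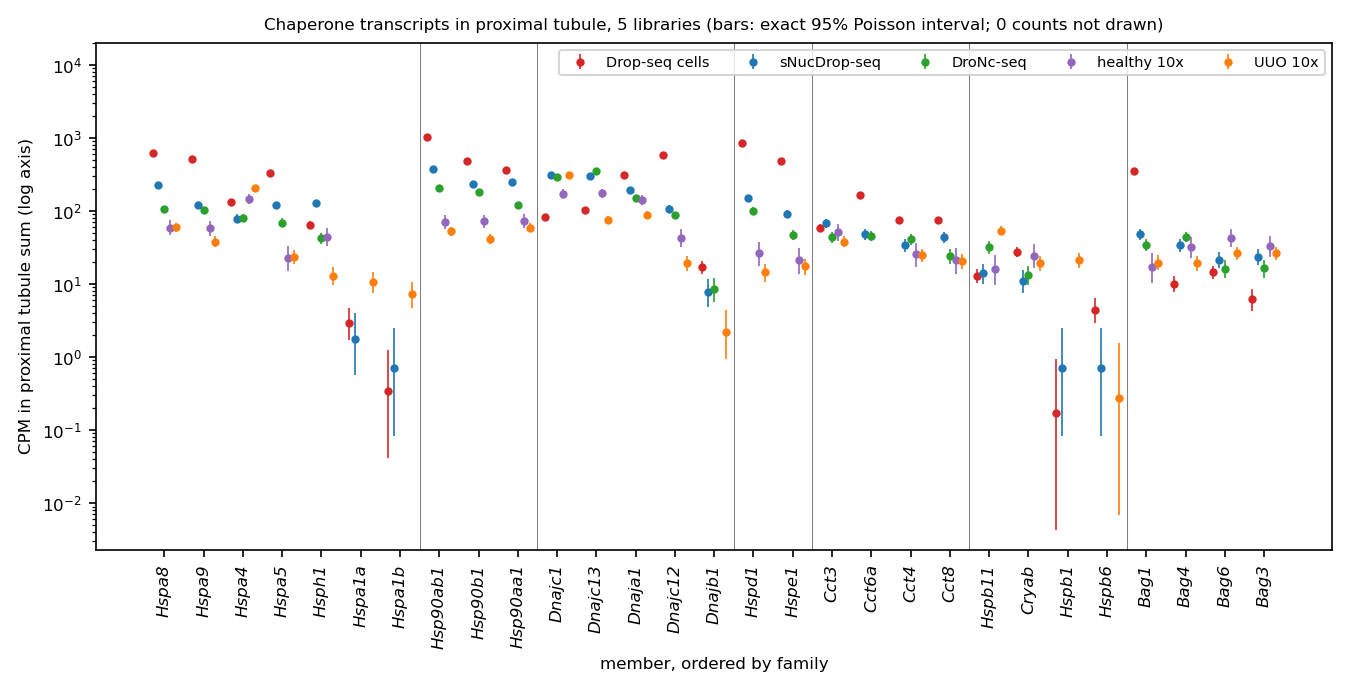
Level (CPM, log axis) of the named members of each family in the summed proximal tubule barcodes of the 5 libraries, with exact 95% Poisson intervals as bars and libraries at 0 counts left out. Hspd1 spans 848 CPM in Drop-seq cells to 14.3 in UUO nuclei, while Hspb1 reaches 21.2 in UUO only.

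Cells were compared with sNucDrop-seq nuclei first, because both used the Drop-seq chemistry. In the proximal tubule 68 members had at least 20 counts over both sums and were counted in both libraries, the condition for a ratio here. Of these, 29 stood 2-fold or more above the nuclei, where 17.9% of the 12838 genes measured did, and 13 stood 2-fold or more below, where 48.7% did. Their median log2 ratio was 0.70, against -0.93 over all genes. Scaling by trimmed means (TMM) moved all ratios of this comparison up by 0.92. Under it, 3 members in place of 13 were 2-fold or more below, and a ratio below 0 but closer to it than that shift changes sign. Below, higher and lower in a count mean by 2-fold or more.

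The mitochondrial chaperonin stood far above the median of all genes. Hspd1, HSP60, was at 848, 149.8, 99.9, 26.1 and 14.3 CPM, so that cells were 5.66-fold above sNucDrop-seq (log2 interval 2.36 to 2.65). Hspe1, HSP10, was at 476, 89.7, 46.5, 21.1 and 17.3 CPM, with a log2 ratio of 2.41 (2.22 to 2.60) for cells over sNucDrop-seq. The pair that shares the heat shock element shown above thus differed by almost the same ratio, and the cells were highest in both. The other carriers of that element had lower levels in cells than in sNucDrop-seq, Dnajb6 at 104 against 115 CPM and Hsph1 at 64.5 against 127. The part of the element in these ratios was not tested. Of the 8 members with products in mitochondria, 6 were higher and 1 lower, with a median of 1.85. The other higher ones were Hspa9 (mortalin, the mitochondrial HSP70, 506 against 119 CPM, log2 2.09), Dnajc19 (367 against 114, 1.68) and Dnajc15 (85.3 against 29.2, 1.55), the last 2 being J proteins of the import motor, and Dnajc30 (2.02). Dnajc11, a J protein of the mitochondrial membranes, was the lower one at -1.25.

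Among HSP70 and HSP110, higher members in cells were the cytosolic Hspa8, the ER's Hspa5 and the mitochondrial Hspa9. Of 13 HSP70 and HSP110 genes 9 were measured, with 3 higher and 1 lower, and a median of 0.73. Hspa8, the constitutive cytosolic HSP70, was at 611, 223, 104, 58.9 and 59.1 CPM, with a log2 ratio of 1.45 (1.33 to 1.57) for cells over sNucDrop-seq. Hspa5 (BiP) was at 326, 119, 68.8, 22.7 and 23.4 CPM and had the same ratio of 1.45 (1.28 to 1.62). Both were highest in cells and lowest in the 10x nuclei. Hspa12a, a distant HSP70 relative, went the other way at 10.5 CPM in cells against 27.5 in sNucDrop-seq (log2 -1.38).

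All 3 HSP90 genes were above 0, and 2 were higher by 2-fold. Hsp90ab1, the constitutive cytosolic HSP90, was at 1008, 375, 203, 69.9 and 52.3 CPM (log2 1.43 for cells over sNucDrop-seq, 1.33 to 1.52). Hsp90b1 (GRP94) was at 482, 235, 178, 71.6 and 41.5 CPM, with a log2 ratio of 1.04 (0.92 to 1.16). The inducible Hsp90aa1 had the smallest ratio of the 3, 0.54 (0.41 to 0.66), from 364 and 251 CPM. Over the 11 members with products in the ER, 5 were higher and 2 lower, with a median of 0.98, and the 3 that carry the ER stress element were all among the higher ones, Dnajc3 at 1.41 (217 against 82.0 CPM). The lower ER members were Dnajc1 at -1.95 (80.9 against 312 CPM) and Dnajb14 at -1.38.

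CCT, the ring that folds actin and tubulin, was higher in cells in most of its subunits. Of 8 measured genes 5 were higher and 1 lower, with a median of 1.27. Cct6a was at 162 CPM in cells against 47.6 in sNucDrop-seq (log2 1.77, 1.51 to 2.04), Cct7 at 68.7 against 16.7 (2.04, 1.61 to 2.51) and Cct4 at 74.8 against 33.7 (1.15). Cct8 was 1.70-fold higher, and the interval of Cct3 included 0 at -0.21 (-0.47 to 0.05), a value that turns above 0 under TMM. The lower one was Cct6b at -1.65 (9.33 against 29.2 CPM), a second gene for the Cct6 subunit. Cct6a was listed at 0 in healthy 10x and is not a row of the UUO table.

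The 44 HSP40 genes, the largest family, had the widest range of ratios, while the 6 BAG genes alone ran from -1.93 to 2.88. Of 37 measured, 13 were higher and 9 lower, with a median of 0.42. The highest was Dnajc12, a J protein that acts on aromatic amino acid hydroxylases, at 577, 105, 86.3, 42.9 and 19.0 CPM (log2 2.45 for cells over sNucDrop-seq, 2.28 to 2.63). The lowest was Dnajc6, auxilin, which strips clathrin from coated vesicles, at 22.9, 175, 162, 221 and 48.7 CPM (log2 -2.94, -3.22 to -2.66). Dnajc13, an endosomal J protein, was also lower in cells (102 against 299 CPM, -1.56), while Dnaja1, a main cytosolic partner of HSP70, was 1.58-fold higher. The cells were thus highest for Dnajc12 and lowest for Dnajc6 among the healthy libraries.

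BAG and small heat shock members were few. Of 6 BAG genes 2 were higher and 2 lower, and the median of -0.57, which turns above 0 under TMM, lay 0.36 above that of all genes. Bag1, which frees clients from HSP70, was at 348, 47.3, 33.8, 16.8 and 19.5 CPM, a log2 ratio of 2.88 (2.63 to 3.14) for cells over sNucDrop-seq. Bag3, the heat-inducible member that works with small heat shock proteins in autophagy, was lower in cells at 6.11 against 23.3 CPM (log2 -1.93), as was Bag4 (10.0 against 34.1, -1.77). Only 3 of 8 small heat shock genes were measured: Cryab (27.3 against 11.1 CPM, log2 1.30, 0.74 to 1.89), Hspb6 (4.41 against 0.695, 2.67, 0.67 to 5.79) and Hspb11 (12.9 against 13.9, -0.11), whose product is a subunit of intraflagellar transport.

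**Figure D2:**
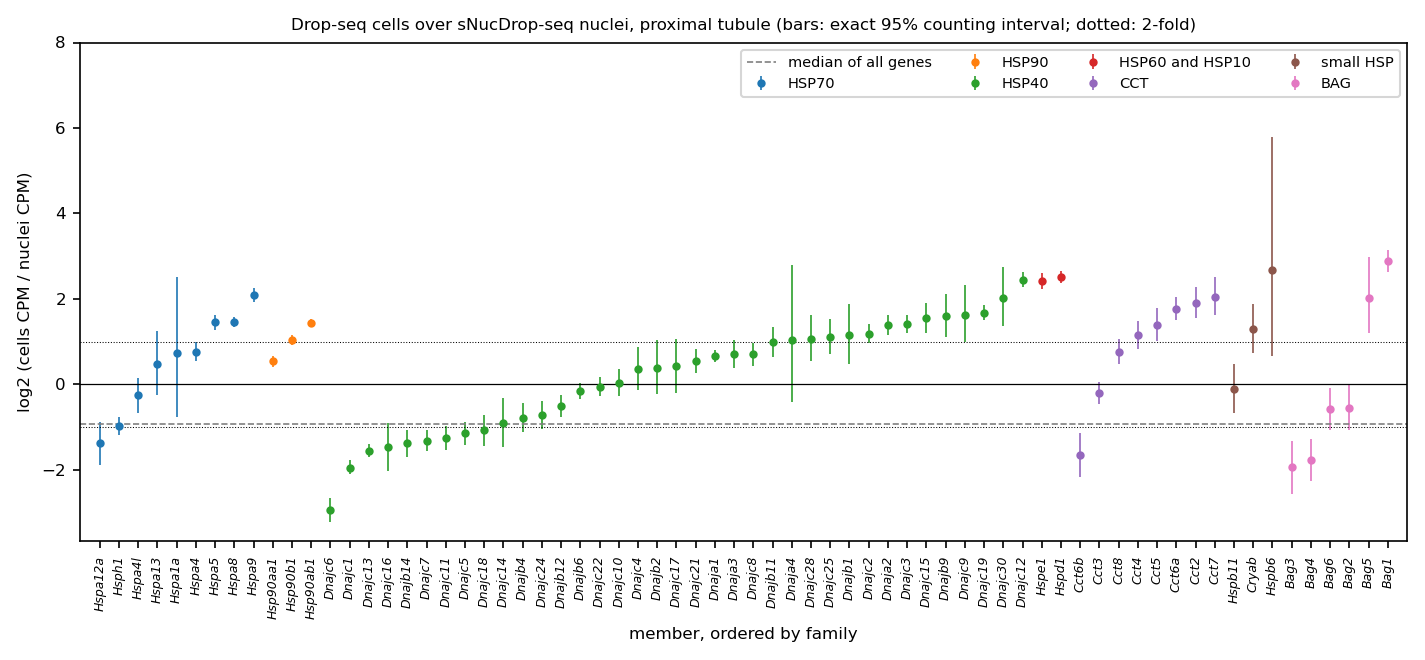
Log2 ratio of CPM in Drop-seq cells over sNucDrop-seq nuclei for the 68 measured members in the proximal tubule, ordered by family, with exact 95% counting intervals as bars, 2-fold as dotted lines and the median of all genes (-0.93) dashed. Members run from Dnajc6 at -2.94 to Bag1 at 2.88, and 54 of 68 lie above the dashed line.

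The cells had been digested at 37 °C, and the 14 members listed as heat-inducible were counted by themselves. Of these 12 were measured for cells over sNucDrop-seq in the proximal tubule, with 5 higher (17.9% of all genes) and 1 lower (48.7%). Their median was 0.69, beside 0.70 for all members and -0.93 for all genes. The part of the digestion in these values was not tested. In the proximal tubule the most strongly inducible genes were near the floor in cells. Hspa1a had 17 counts in proximal tubule cells (2.88 CPM) and 5 in sNucDrop-seq (1.74 CPM), Hspa1b 2 and 2, and Hspb1 1 and 2. Outside it Hspa1a had 8 counts in 97 connecting tubule cells, 3 in 37 principal cells and 3 in 36 intercalated cells. The sNucDrop-seq nuclei of those classes had 0, 0 and 1. For cells and sNucDrop-seq, the ascending limb had 2 and 2, the distal convoluted tubule 1 and 1, endothelium 0 and 1, and macrophages 0 and 0. Dnajb1, the inducible partner of HSP70, was at 17.0 CPM in cells and 7.65 in sNucDrop-seq (log2 1.15, 0.47 to 1.89), and Hsph1 at 64.5 against 127 (-0.98). Hspa1a and Hspa1b are near-identical copies, so the split between them is uncertain.

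The other healthy nucleus libraries were used as the reference next. With DroNc-seq as the reference 30 of 68 members were higher in cells (19.7% of all genes) and 15 lower (48.3%), with a median of 0.74 against -0.92. With healthy 10x it was 27 of 62 (21.6%) and 10 (46.3%), with a median of 0.52 against -0.80. Hspd1 was 8.49-fold above DroNc-seq and 32.5-fold above healthy 10x, and Hspa5 4.73-fold and 14.3-fold. Hsph1 changed side, at 0.62 and 0.56 against -0.98 for sNucDrop-seq. Dnajc3 differed from this order, at log2 1.97 against DroNc-seq and -0.61 against healthy 10x, the second of which turns above 0 with the TMM shift of 0.89.

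Of the 62 members measured against each of the 3 healthy nucleus libraries, 18 were higher in cells than in every one: Hspa5, Hspa8, Hspa9, Hsp90ab1, Hsp90b1, Hspd1, Hspe1, Cct2, Cct5, Cct7, Dnaja2, Dnajb9, Dnajc2, Dnajc9, Dnajc12, Dnajc19, Dnajc30 and Bag1. Of the 10750 genes measured against each, 13.5% met this condition. The 7 members that were lower than in every one were Hspa12a, Dnajc1, Dnajc5, Dnajc6, Dnajc11, Bag3 and Bag4, against 36.6% of all genes. These comparisons share the Drop-seq cells, so the lists are not independent. The 18 span 6 of the 7 families, and no small heat shock gene is among them. Of the small heat shock genes only Cryab and Hspb11 were measured against each of the 3 libraries.

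Gene length moved with the ratio. Over the 68 members the Spearman correlation of gene length with the log2 ratio of cells over sNucDrop-seq was -0.55, and over all 12744 genes with a length it was -0.44. Genes are not independent and share these 2 libraries, and the correlation is given as a description. Of the 29 members at or under 16944 bp, the median length of all members, 19 were higher and 0 lower, with a median of 1.30 against 0.18 for all genes of that length. Of the 39 longer members 10 were higher and 13 lower, with a median of -0.15, above 0 under TMM, against -1.38. Members were thus above all genes in both length classes. Dnajc6 (146152 bp) and Hspa12a (147905 bp) are among the longest members, while Hspe1 (3176 bp), Hsp90ab1 (5497 bp) and Hspa5 (5578 bp) are short. Whether reads in introns were counted was not given in the sources used here, and the part of length in the ratios was not tested.

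**Figure D3:**
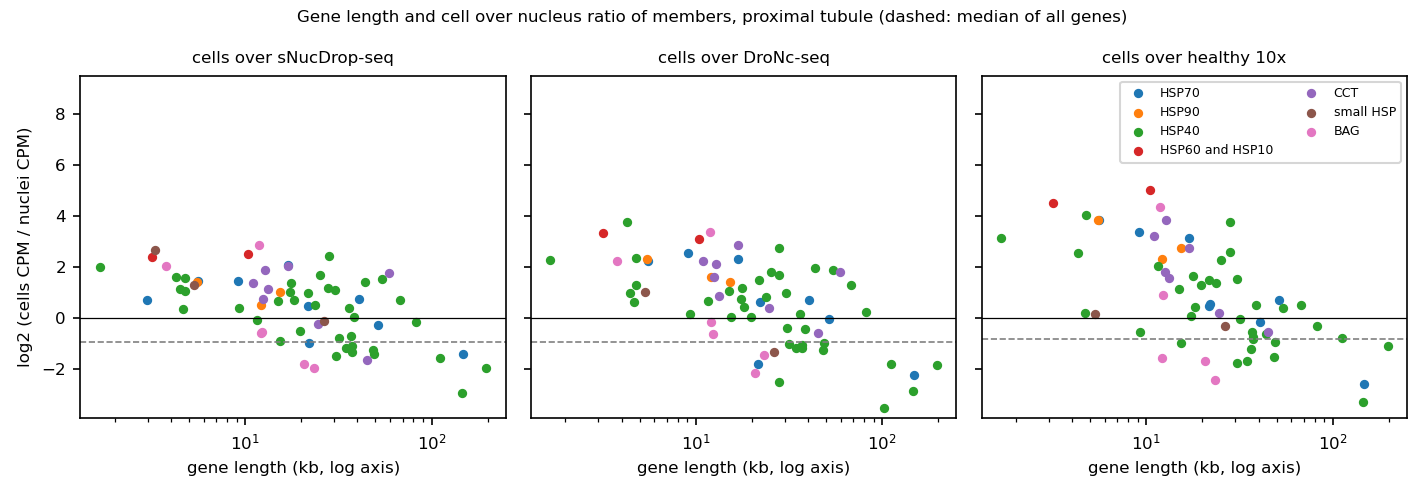
Gene length (kb, log axis) against the log2 ratio of CPM in Drop-seq cells over each healthy nucleus library in the proximal tubule, 1 point per measured member coloured by family, with the median of all genes dashed. The points fall from upper left to lower right in all 3 panels, with Spearman correlations of -0.55, -0.59 and -0.64.

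Outside the proximal tubule the comparison of cells with sNucDrop-seq nuclei rested on 20 to 146 cells per class. In the ascending limb, 20 of 42 members were higher in cells (20.1% of all genes) and 6 lower (49.4%). In the distal convoluted tubule the counts were 23 higher (28.0%) and 5 lower (42.6%) of 44, in the connecting tubule 19 (22.5%) and 6 (48.0%) of 37, and in principal cells 12 (25.1%) and 2 (50.4%) of 21. Intercalated cells had 8 (18.2%) and 3 (56.5%) of 27, endothelium 8 (15.8%) and 4 (58.7%) of 17, and macrophages 4 (25.9%) and 1 (54.6%) of 9. In each of these classes the share of members that were higher was above that of all genes, and the proximal tubule markers were counted in all of them as given above.

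Several members lay on the same side in each class measured. Every class shares its libraries with the others, so these are repeated values and not replicates. Hspd1 and Dnajc12 were higher in cells in 8 of 8 classes, at log2 1.44 to 2.86 and 1.18 to 5.15, and Bag1, Hspa9 and Hspe1 in 7 of 7. The 5.15 of Dnajc12 was in macrophages, at 566 CPM in cells against 15.9 CPM from 1 count in sNucDrop-seq. Hsp90ab1 and Hspa8 were above 0 in 8 of 8 classes and 2-fold higher in 7. Dnajc1 was lower in 8 of 8 (-4.05 to -1.70) and Dnajc13 in 7 of 7 (-2.58 to -1.56). Bag1 was highest in the cells of the distal convoluted tubule, with 299 counts (922 CPM), against 12 counts (57.9 CPM) in sNucDrop-seq nuclei of that class. The interval in those cells (820.1 to 1032) overlapped that of ascending limb cells (817 CPM, 699 to 949). Hsph1 stayed below 0 in 5 of 5 classes, at -0.98 to -0.02, was not 2-fold lower in any of them, and turns above 0 under TMM in the 4 outside the proximal tubule.

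The 3 healthy nucleus libraries also differed among themselves. DroNc-seq lay close to sNucDrop-seq: of 67 members 3 were higher in DroNc-seq (4.29% of all genes) and 6 lower (9.03%), with a median of -0.26 against -0.10. The higher ones were Hspa13, an HSP70 of microsomes (36.8 against 7.65 CPM, log2 2.27), Dnajc5b (2.46) and Hspb11 (1.19). Among the lower ones were Hsph1 (42.0 against 127 CPM, -1.60), Hspa8 (104 against 223, -1.10) and Hsp90aa1 (120.2 against 251, -1.06). The other 3 lower ones were Dnajc9, Dnajc16 and Cct6b.

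Healthy 10x nuclei stood further from sNucDrop-seq. Of 62 members 6 were higher in 10x (13.5% of all genes) and 21 lower (20.2%), with a median of -0.49 against -0.15, and TMM moved these ratios up by 0.12. All 3 HSP90 genes were lower, Hsp90ab1 at -2.42 (-2.76 to -2.10), as were both chaperonin genes, Hspd1 at -2.52 (-3.10 to -1.99), 4 of 7 CCT genes, and Hspa5 (-2.39), Hspa8 (-1.92), Hspa9 (-1.06) and Hsph1 (-1.54) of the HSP70 family. The 6 higher ones were Hspa1l (log2 3.28), Dnajc3 (2.02), Dnajc17 (1.62), Hspa12a (1.18), Cryab (1.13) and Dnajc15 (1.13). Hspa1l, an HSP70 known mainly from testis that lies beside Hspa1a on chromosome 17, was at 30.3 CPM in 10x against 3.13 in sNucDrop-seq, and had no count in proximal tubule cells or DroNc-seq nuclei. Set against DroNc-seq, 7 of 61 members were higher in 10x (14.7%) and 14 lower (15.8%). By length, 16 of 25 members at or under 16944 bp were lower in 10x than in sNucDrop-seq, and 5 of 37 longer ones. The medians were -1.45 for the shorter members and -0.28 for the longer ones. All genes of those lengths also differed, at -0.49 and -0.03.

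UUO nuclei were compared with healthy 10x nuclei class by class. In the proximal tubule 60 members were measured, with 3 higher in UUO (14.6% of all genes) and 8 lower (20.7%), with a median of -0.19 against -0.10. Summed by family, HSP70 was at 422 CPM in UUO and 447 in healthy 10x, HSP90 at 153 and 214, HSP40 at 1824 and 2245, CCT at 122 and 134, BAG at 106 and 131, the mitochondrial chaperonin at 31.6 and 47.2, and the small heat shock genes at 96.3 and 40.4. The intervals did not overlap for HSP90 (140.2 to 166 against 188 to 242), HSP40 (1779.9 to 1868 against 2160.4 to 2332) and the small heat shock genes (86.5 to 107 against 29.8 to 53.6). Without Dnajc3 the HSP40 sums were 1795.5 CPM in UUO (1752.2 to 1839.6) and 1913.1 in healthy 10x (1835.2 to 1993.4), with overlapping intervals. The small heat shock genes were the only family whose sum was higher in UUO. That sum rested on Hspb11, the intraflagellar transport subunit (53.1 against 16.0 CPM), and Hspb1 (21.2, listed at 0 in healthy 10x), while Cryab was at 19.0 against 24.4. Without Hspb1 and Hspb11 the sums were 22.0 CPM in UUO (17.4 to 27.4) and 24.4 in healthy 10x (16.4 to 35.1). Leaving out these members was chosen after seeing the data.

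The lower members in UUO proximal tubule were led by Dnajc3. It was at 28.1 CPM in UUO against 332 in healthy 10x, 11.8-fold lower (log2 -3.56, -3.89 to -3.25), but cells held 217, sNucDrop-seq nuclei 82.0 and DroNc-seq nuclei 55.5. Of the 5 libraries healthy 10x was the highest for Dnajc3 and UUO the lowest. With the other nuclei as reference the log2 ratio was -1.55 (sNucDrop-seq) and -0.99 (DroNc-seq). Hspa1l was lower in the same way, with 2 counts in UUO and 36 in healthy 10x (log2 -5.78, -8.88 to -3.83). Dnajc6 (auxilin) was at 48.7 CPM in UUO against 221 (log2 -2.18, -2.46 to -1.90), and stayed lower against sNucDrop-seq (-1.85) and DroNc-seq (-1.74). Dnajc12 (-1.18), Dnajc13 (-1.22), Dnajc16 (-2.57), Hsph1 (-1.76) and Cct6b (-1.29) were the other lower ones.

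The higher members in UUO proximal tubule were Dnajc5, Hspb11 and Bag2. Dnajc5, the cysteine string protein of secretory vesicles, was at 40.2, 89.0, 90.6, 127 and 294 CPM, a log2 ratio of 1.21 over healthy 10x (0.96 to 1.47), 1.73 over sNucDrop-seq and 1.70 over DroNc-seq. UUO was the highest library for Dnajc5. Hspb11 was at 53.1 CPM in UUO against 16.0 in healthy 10x (log2 1.73, 1.05 to 2.49), but 31.7 in DroNc-seq gave 0.74. Bag2, which inhibits the ubiquitin ligase that works with HSP70, had 49 counts in UUO (13.5 CPM) and 8 in healthy 10x (6.74 CPM, log2 1.00, -0.09 to 2.29). The Bag2 level was higher for sNucDrop-seq (18.4 CPM) and DroNc-seq (19.3 CPM), so that its ratio was below 0 with those references (-0.45 and -0.52). Hspa4, an HSP110, was at 204 against 145 CPM (0.50, 0.25 to 0.74). Hspa8 was nearly equal, at 59.1 and 58.9 CPM, and Hspa5 at 23.4 and 22.7. The summed level of the proximal tubule markers differed between the 2 libraries as given above, and its part in these ratios was not tested.

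Some of the most inducible chaperones were counted in UUO nuclei and listed at 0 in healthy 10x. Hspb1, HSP27, which binds actin filaments and unfolded proteins, had 168 counts over all UUO nuclei (22.7 CPM, 19.4 to 26.4), 9 in cells and 3 in sNucDrop-seq, and was listed at 0 in DroNc-seq. Scaled to the UMIs of the healthy 10x library, the UUO level of Hspb1 would give 66.8 counts. Hspa1a had 68 counts in UUO (9.18 CPM, 7.13 to 11.6), 34 in cells and 10 in sNucDrop-seq, and Hspa1b had 50, 7 and 4. Dnajb1 was also listed at 0 in healthy 10x, but UUO was the lowest of the libraries that counted it, at 3.10 CPM (23 counts) against 17.5 for cells, 9.07 for sNucDrop-seq and 8.01 for DroNc-seq. In the UUO proximal tubule Hspb1 was seen in 73 of 2352 nuclei (3.10%) with at most 2 counts in any, while 14 of the 38 Hspa1a counts came from 1 nucleus. Hspb1 was counted in all 12 UUO classes, at 11.3 to 31.5 CPM in 11 of them and 106 in the 46 nuclei labelled JGA (5 counts, 34.6 to 248), whose interval lay above those of the proximal tubule, intercalated cells and fibroblasts. The share of nuclei with a count ran from 0.769% in macrophages to 8.70% in JGA, at median depths of 326.5 and 811 UMIs. It was 1.01% in fibroblasts, 1.02% in intercalated cells and 3.11% in principal cells. How much of the level in these classes is RNA shared between barcodes was not tested. Since no gene counted in healthy 10x was seen in fewer than 4 barcodes, and filters were not given in the sources used here, no fold is given for Hspb1, Hspa1a or Hspa1b.

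Among proximal tubule labels of the UUO library, values overlapped for most members. Dnajc6 was at 76.8 CPM in S1 nuclei (51.8 to 109.6), 50.5 in S2, 38.8 in S3, 36.0 in nuclei labelled dedifferentiated and 27.7 in proliferating ones (10.2 to 60.3), all below the 204 (171 to 242) of S1 and S2 and the 240.2 (201 to 285) of S3 in healthy 10x. Dnajc5 was at 284, 287, 322, 314 and 268 CPM in the same order, against 132 and 121 in the healthy labels. Dnajc6 was therefore lower and Dnajc5 higher in each UUO label than in both healthy ones, with intervals apart. Hspb1 was at 15.4 CPM in S1, 25.2 in S2, 15.5 in S3, 10.3 in dedifferentiated and 23.1 in proliferating nuclei, and these intervals overlapped. Leaving out the dedifferentiated and proliferating labels gave 5 members higher in place of 3.

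The other classes were compared between UUO and healthy 10x in the same way. The ascending limb had 4 of 52 members higher (16.0% of all genes) and 7 lower (17.2%), the distal convoluted tubule 7 (20.9%) and 5 (14.4%) of 37, and the connecting tubule 5 (24.9%) and 5 (13.2%) of 38. Principal cells had 4 (21.9%) and 1 (13.3%) of 28, intercalated cells 1 (16.0%) and 4 (12.4%) of 21, endothelium 2 (22.7%) and 1 (11.7%) of 15, the descending limb 0 (12.5%) and 3 (13.5%) of 18, and podocytes 4 (12.7%) and 2 (15.9%) of 8. Apart from the podocytes, where only 8 members were measured, the shares of higher members were below those of all genes. TMM lowered the ratios by 0.12 to 0.20 in the distal convoluted tubule, connecting tubule, principal cells and endothelium.

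Some members differed the same way in class after class. Dnajc3 was lower in UUO in 9 of 9 classes, at log2 -4.39 to -2.92. Dnajc5 was above 0 in 9 of 9 (0.04 to 1.83) and 2-fold higher in 3, and Hspa4 in 9 of 9 (0.12 to 1.19), both turning below 0 in endothelium under TMM. Dnajc1 was above 0 in 9 of 9 (0.24 to 1.05). Before TMM, Hspb11 was above 0 in 5 of 5 classes (0.68 to 1.73) and 2-fold higher in 3. Hspa5 was above 0 in 5 of 5 (0.04 to 1.49) and 2-fold higher in 1. Hspa8, nearly equal in the proximal tubule, was above 0 in 5 of 6 and below in 1 (-0.31 to 1.81), and 2-fold higher in 2. Hsp90b1 was below 0 in 8 of 8 classes (-0.85 to -0.08) and not 2-fold lower in any, and Cct3 and Dnajc11 were below 0 in 6 of 6. Dnajc6 was lower by more than 2-fold in the ascending limb (8.34 against 36.9 CPM), the distal convoluted tubule (14.8 against 116) and the connecting tubule (13.5 against 119) as well. Every class shares its library with the others, so these are repeated values of 2 libraries.

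**Figure D4:**
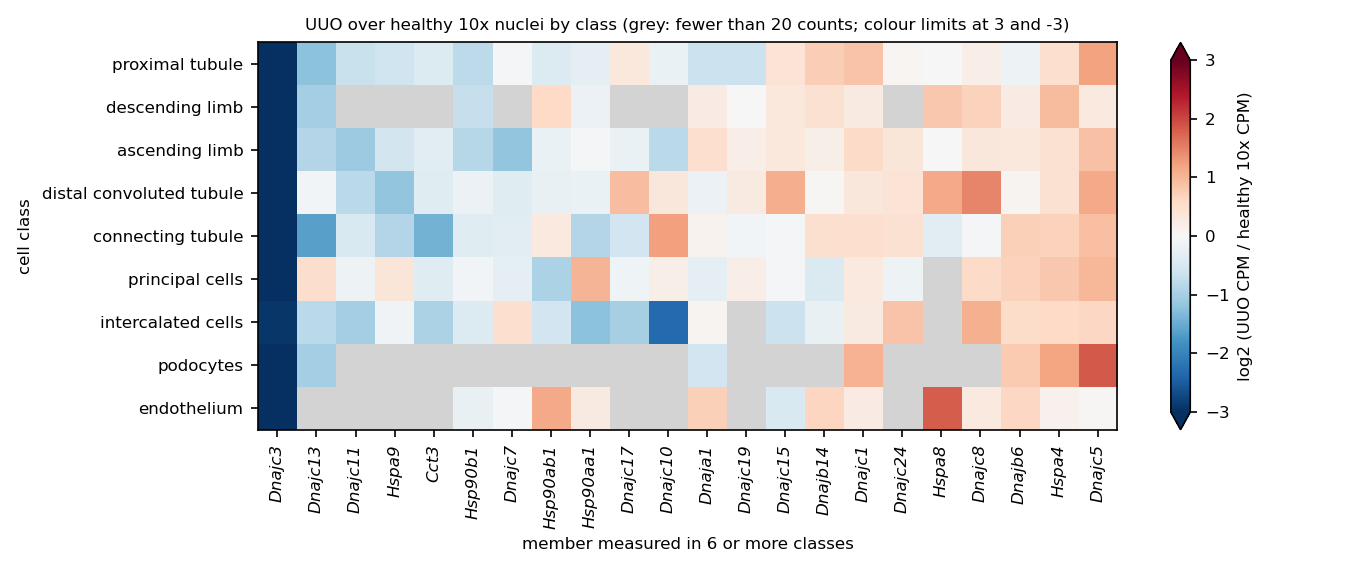
Log2 ratio of CPM in UUO over healthy 10x nuclei for members measured in 6 or more of the 9 classes, ordered by their median over classes, with cells under 20 counts in grey and colours limited at 3 and -3. Dnajc3 is blue in all 9 classes (-4.39 to -2.92), and Dnajc5 and Hspa4 are red or near white in all 9.

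Levels by class set a few members apart. Cryab, alpha B-crystallin, a small heat shock protein of lens, muscle and kidney medulla, had 43 counts in the 37 principal cells of Drop-seq, 612 CPM (443 to 825), against 72.1 in the ascending limb (40.3 to 119) and 27.3 in the proximal tubule. A count was seen in 13 of those 37 cells (35.1%, exact interval 20.2% to 52.5%) with at most 8 in any, and in 3.47% of proximal tubule cells, at median depths of 1740 and 1628.5 UMIs. In nuclei of principal cells Cryab had 0 counts for sNucDrop-seq, 1 for DroNc-seq and 2 for healthy 10x, where the upper limits were 31.0, 48.6 and 63.3 CPM, and 18 counts in UUO (40.6 CPM, 24.1 to 64.2). Among principal cells the high level was thus seen in Drop-seq only. In nuclei Cryab was highest in the descending limb, at 122 (61.0 to 219), 50.9, 67.5 and 58.4 CPM in the 4 nucleus libraries, and overlapped the podocytes in each. DroNc-seq nuclei labelled descending limb ranked 3 of 11 classes for the sum of the descending limb markers, so that label is less sure there. Cryab overlaps Hspb2, which had 15 counts in all Drop-seq cells.

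Hspa12a and Hspa12b, distant relatives of HSP70, also varied between classes of nuclei. Hspa12b was highest in endothelium, at 129 CPM for sNucDrop-seq (78.7 to 199), 128 for DroNc-seq (80.5 to 194), 55.4 for healthy 10x from 3 counts and 74.8 for UUO (45.0 to 117). Outside endothelium it was at 22.2 CPM or less in each library. Hspa12a was highest in the descending limb of sNucDrop-seq (189 CPM) and DroNc-seq (236) and in podocytes of healthy 10x (214, 137 to 319). In UUO podocytes Hspa12a was at 621 CPM (475 to 798), with a count in 48.3% of 87 nuclei, against 30.2% of 53 in healthy 10x, while the descending limb was at 62.6 CPM in UUO and 202 in healthy 10x. The UUO podocyte level was above all other classes and libraries without overlap of intervals. Fibroblasts, which only the UUO library has, held 164 CPM of Hspa12a (127 to 209.6).

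**Figure D5:**
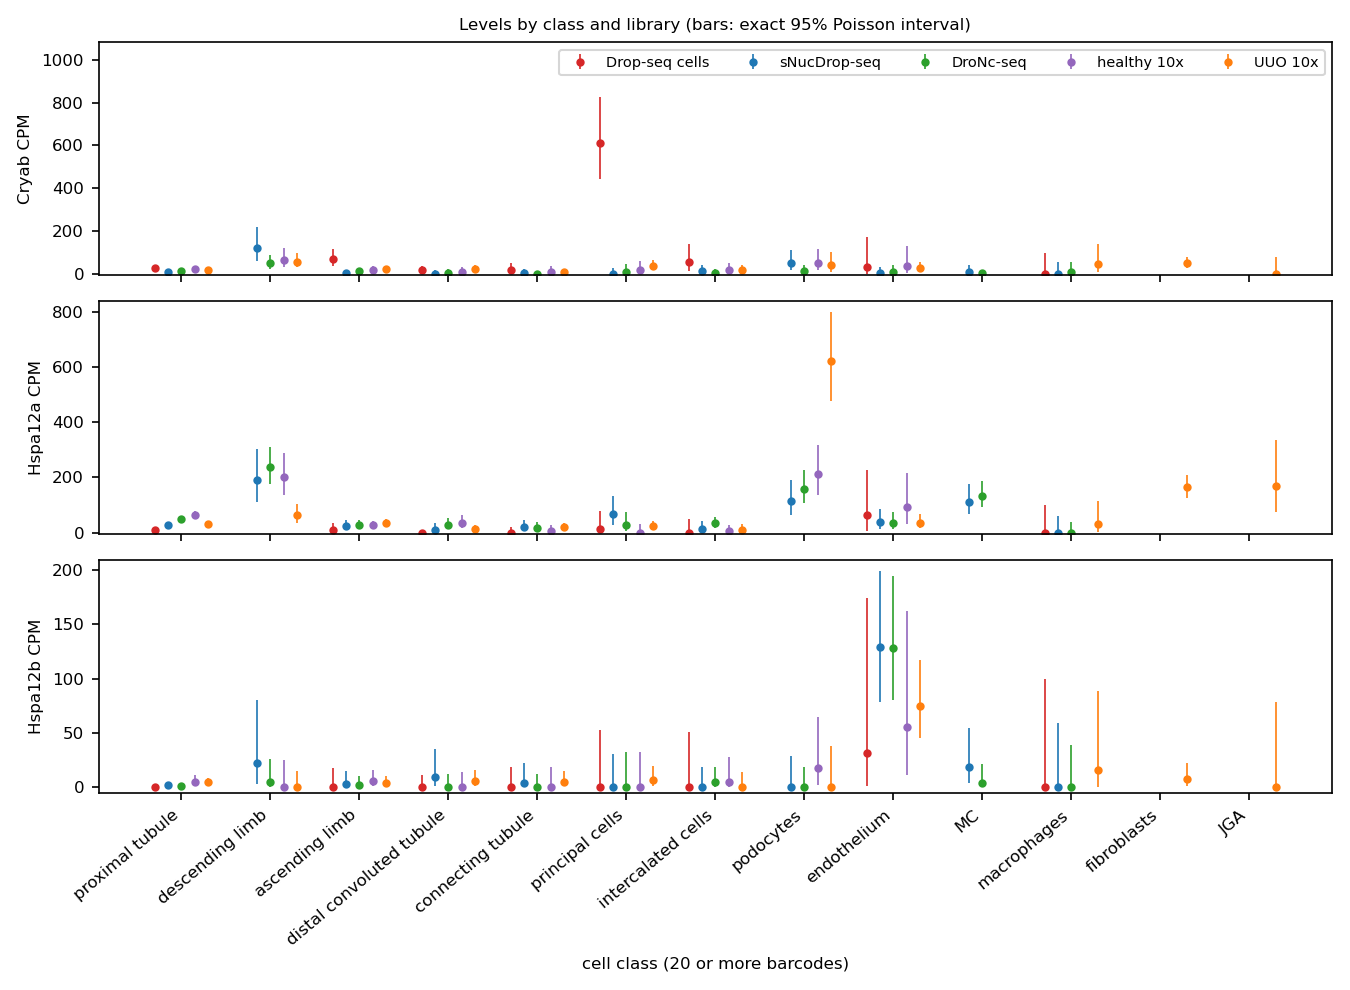
Level (CPM) of Cryab, Hspa12a and Hspa12b in every class with 20 or more barcodes in the 5 libraries, with exact 95% Poisson intervals as bars. Cryab stands out in Drop-seq principal cells (612), Hspa12a in UUO podocytes (621) and Hspa12b in endothelium of sNucDrop-seq and DroNc-seq (129 and 128).

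Dnajc6 was highest in the proximal tubule of all 4 nucleus libraries, with the values given above. The next class overlapped with it in each: principal cells (151), connecting tubule (130.2), podocytes (125) and podocytes (40.7). Dnajc22 was highest in proximal tubule nuclei of sNucDrop-seq at 90.7 CPM (80.0 to 102), overlapping macrophages (79.7, 25.9 to 186), and lowest in endothelium at 19.3 from 3 counts. The proximal tubule was also its highest class in Drop-seq cells (86.9 CPM), DroNc-seq (54.0) and UUO (14.3), overlapping the next class in each. Dnajc5 was highest in macrophages of UUO (477 CPM, 322 to 682), overlapping the distal convoluted tubule (333). The 5 genes whose log2 CPM over the 9 healthy 10x classes was most like that of Cryab, of 7339 genes compared by Pearson correlation, were Zbtb20 (0.962), Uvrag (0.961), Ncam1 (0.956), Tshz2 (0.933) and Samd4 (0.931). Cryab had 2 to 29 counts per class there, and the 9 values share 1 library.

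Other genes of protein folding were read beside the members for cells over sNucDrop-seq in the proximal tubule, where 17.9% of all genes were higher and 48.7% lower. Of 8 partners of CCT, the prefoldin subunits and their relatives, 6 were higher in cells and 0 lower, with a median of 1.76, as Pfdn5 (2.13) and Pfdn6 (2.02). Of 14 heat shock factors and cochaperones of HSP70 and HSP90, 3 were higher and 4 lower, with a median of -0.14 that turns above 0 under TMM: St13 was higher (331 against 159.9 CPM), and Hsf1, the main heat shock factor, lower (5.77 against 18.8 CPM, log2 -1.70). Of 17 measured genes of ER folding and its stress response 7 were higher and 6 lower. The folding enzymes Calr (1.92), P4hb (1.98) and Pdia6 (1.75) were on the higher side, and the sensors Ern1 (-3.03), Eif2ak3 (-2.97) and Atf6 (-1.45) with Ddit3 (-2.80) on the lower. Of 10 genes of mitochondrial import and proteolysis 2 were higher and 0 lower, led by Grpel1, the nucleotide exchange factor of mortalin (132 against 10.8 CPM, 3.62).

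The same lists were read for UUO over healthy 10x in the proximal tubule, where 14.6% of all genes were higher and 20.7% lower. Of 8 CCT partners 2 were higher and 0 lower, with a median of 0.41, Tcp1, itself a subunit of CCT, at 1.81 (62.2 against 17.7 CPM). Of 16 measured ER genes 2 were higher and 1 lower, with a median of 0.44. Pdia3, a disulfide isomerase, was at 1096 against 252 CPM (2.12, 1.95 to 2.30), and Herpud1, which serves ER-associated degradation, at 104 against 318 (-1.62). Of 13 cochaperones 1 was higher and 2 lower, and of 9 mitochondrial genes 0 were higher and 1 lower. Pdia3 was higher while Hspa5 and Hsp90b1, of the same compartment, were at log2 0.04 and -0.78.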

How the data were processed

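The deposited tables hold UMI counts per gene and barcode, made by the authors with zUMIs per the deposited readme, and with STAR 2.5.3a and mm10 per the submitters' processing notes. For annotation, intron counting and filters nothing was given in the sources used here. All healthy libraries share 1 table and UUO has its own. No column lacked a sample. Counts were summed per library and authors' class (at least 20 barcodes) and divided by the class total. Intervals are exact Poisson for levels and exact conditional for ratios, at 95%, and cover counting error only. With 1 library per group no test was made and no p-value is given. A gene was measured with at least 20 counts over both sums and a count somewhere in both libraries. Doublets were not removed: 43 to 202 barcodes per library exceeded 3 times their class median of UMIs, and leaving out such barcodes was an alternative.

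The members and lists were chosen with earlier results of these data known. Named genes were those with the largest mean proximal tubule CPM (up to 4 per family), up to 4 at each end of every comparison by interval, 10 fixed heat-inducible members, up to 6 per library with the widest span over classes, and 5 genes most like Cryab, among genes whose class mean was 20 CPM or more, with 10 CPM added before the log. Genes named for a role in a fixed list, or as a count of 5 or fewer, were chosen after their values were seen. Gene positions and lengths are GENCODE M21 on mm10, and promoter windows are RefSeq. TMM factors came from edgeR 4.0.16 (R 4.3.3), intervals from scipy 1.17.1, tables from pandas 2.3.3 on numpy 2.4.6, and figures from matplotlib 3.10.9, under Python 3.11.15. The ratio intervals were run on simulated Poisson counts, the model they assume. That run checks the code and cannot show how far libraries or barcodes vary beyond counting error. Alternatives were other scalings, totals, count minimums, folds, barcode sets and healthy references.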

Additional observations from a re-analysis of the deposited data

Results flagged for a closer look

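Hspa12a, a distant HSP70 relative, differed between UUO and healthy 10x nuclei in opposite directions in 2 classes. In podocytes the log2 ratio of UUO over healthy 10x was 1.54, and in the descending limb it was -1.69. The counts behind them were 61 and 24 in podocytes and 15 and 30 in the descending limb, with 1 library per group. The difference between the classes was not tested. The Hspa12a gene overlaps Eno4.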

How the results depend on the processing

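No paired analysis was possible because each group is 1 library, and for the same reason no replicate could be left out. Over all alternatives, 142 values of the member counts stayed within 1.5 times and 42 moved. Many values for single members moved: under TMM 154 moved and 208 stayed, and under median of ratios 153 moved and 209 stayed. Without mitochondrial and ribosomal protein genes 96 moved and 266 stayed. Only 2 were counted as reversed: the Bag2 ratio of UUO over healthy 10x went from 1.00 to -0.45 with sNucDrop-seq and to -0.52 with DroNc-seq as the healthy reference. The changes of sign under TMM given above were not counted as reversed. For cells over sNucDrop-seq, the 13 lower members became 3 under TMM, 3 under median-of-ratios scaling, 7 without mitochondrial and ribosomal protein genes, 21 at a count minimum of 1 and 1 at 4-fold, and the 29 higher became 9 at 4-fold. For cells over DroNc-seq, the 15 lower became 5 under TMM, 5 under median of ratios, 8 without those genes and 5 at 4-fold, and the 30 higher became 15 at 4-fold. For cells over healthy 10x, the 10 lower became 3 under TMM, 3 under median of ratios, 16 at 1.5-fold and 3 at 4-fold. For DroNc-seq over sNucDrop-seq, the 6 lower became 3 under TMM, 3 under median of ratios, 17 at 1.5-fold and 1 at 4-fold, and the 3 higher became 5 at 1.5-fold. For healthy 10x over sNucDrop-seq, the 6 higher became 3 at a minimum of 100 and 2 at 4-fold, and the 21 lower became 6 at 4-fold. For healthy 10x over DroNc-seq, the 7 higher became 3 at a minimum of 100, 11 at 1.5-fold and 1 at 4-fold, and the 14 lower became 28 and 1 at those folds. For UUO over healthy 10x, the 3 higher became 5 under TMM, 6 under median of ratios, 5 with barcodes of at least 1000 UMIs, 9 at 1.5-fold, 0 at 4-fold, 5 without the dedifferentiated and proliferating labels, 11 with sNucDrop-seq and 6 with DroNc-seq as the healthy reference. The 8 lower became 13 and 4 at minimums of 1 and 100, 21 and 4 at 1.5-fold and 4-fold, and 32 and 26 with those references. The minimums and folds change what is counted, and for the other settings the cause was not tested. Totals over genes counted in both libraries, and family sums without Dnajc3, Hspb1 or Hspb11, were alternatives chosen after seeing the data. Depth limits the small classes most: 9 members were measured in macrophages and 8 in podocytes.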
